A study of Mus musculus with 20 samples.

Results

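The genes described here are 9 outputs of the circadian clock, Dbp, Tef, Hlf, Nfil3, Ciart, Bhlhe40, Bhlhe41, Rora and Noct. They were chosen by symbol from a table of raw read counts for 55487 genes, of which 21936 are protein coding, and all 9 were found and had enough counts to be tested in every comparison. Noct was found by its current symbol, and a further symbol column lists it under its older name Ccrn4l. The set was named for transcription factors, but Noct encodes nocturnin, an enzyme that acts on nicotinamide adenine dinucleotide phosphates and not a transcription factor, and Ciart encodes a repressor that acts through its partners.

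The circadian clock of liver cells is a feedback loop in which BMAL1 (encoded by Arntl) and CLOCK bind the E-box motif and switch on their own repressors, the period and cryptochrome genes. Some genes switched on in this way encode further transcription factors, which carry the rhythm to metabolism, detoxification and bile acid synthesis. DBP, TEF and HLF, the PAR bZIP factors, activate genes through the D-box motif, which NFIL3 also binds as a repressor. CIART, BHLHE40 and BHLHE41 repress BMAL1 and CLOCK at E-boxes, and RORA activates genes through ROR elements, the sites at which the NR1D1 and NR1D2 proteins repress.

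Liver RNA was sequenced from 20 female C57BL/6J mice, 1 library per mouse. The 5 chow-fed mice were a lean reference, and 15 mice were fed a high-fat diet (HFD) for 10 weeks from 8 weeks of age and then for 10 more weeks an isocaloric HFD with 50% of its protein from fishmeal, salmon filet or beef. All were 28 weeks old at collection. The mice were kept on a 12-hour light cycle with free access to food, and the time of day at which each liver was taken was not given in the sources used here. Diet and time of collection therefore cannot be told apart for genes whose level follows the clock. Groups were read from the ending of the column names in the count table, which gives 5 mice per group. For 19 mice the sample labels name the same group, whereas mouse 31 is Beef in its column name and salmon filet in its label. The paper states that 5 mice of each diet group were sequenced, which the column names give and the labels do not. As labelled, there are 6 salmon filet and 4 beef mice, and the counts of calls, with the values that they turn on, are given below under both groupings. Chow and HFD differ in many ingredients, which cannot be told apart here.

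Depth was high throughout, with 42526234 to 70266136 counts on genes per library. The share of counts on protein coding genes was 93.2% to 95.6% in 19 mice and 84.3% in mouse 35. The 5 hepatocyte markers (Alb, Apoa1, Ttr, Cps1 and Serpina1c) together held 90550 to 127200 TPM (a measure scaled for the length of the gene and the depth of the library) in every mouse. None of these 5 was called in HFD against chow by edgeR, and the summed markers of any other cell type reached at most 372 TPM in a mouse. The RNA came from whole liver, so fewer cells of a type and less RNA per cell cannot be told apart.

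The factors named above act through short DNA motifs, so the promoters in RefSeq (GRCm38.p6, 250 bases before to 50 after each start) were searched on both strands for the E-box CACGTG, the D-box TTATGTAA and the ROR element TAGGTCA, which do not overlap in these windows. Windows were found for 8 of the 9 genes, with 2 start sites for Tef, and Bhlhe40 had no entry. The E-box was in 7.15%, the D-box in 0.938% and the ROR element in 2.61% of 32851 promoters. The matches are shown with 15 bases on either side and with the motif in capitals, because they set apart the genes that carry an E-box at their start (Tef, Ciart and Bhlhe41) from Nfil3, which carries a ROR element. In Ciart the lower line holds a pair of E-boxes, and in Nfil3 the ROR element lies on the other strand and is read here in reverse.
Tef, start site 1, chr15:81802531-81802566, + strand: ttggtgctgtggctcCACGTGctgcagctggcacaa
Tef, start site 2, chr15:81811261-81811296, + strand: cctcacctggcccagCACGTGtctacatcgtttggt
Ciart, chr3:95882324-95882359, - strand: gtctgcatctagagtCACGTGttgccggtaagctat
Ciart, chr3:95882252-95882301, - strand: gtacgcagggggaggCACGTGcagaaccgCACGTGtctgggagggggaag
Bhlhe41, chr6:145865553-145865588, - strand: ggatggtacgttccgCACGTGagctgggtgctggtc
Nfil3, chr13:52981030-52981066, - strand: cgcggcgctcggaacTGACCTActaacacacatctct
The first base of the E-boxes lay at -127 and -138 from the start sites of Tef, at -116, -58 and -44 in Ciart and at -153 in Bhlhe41, and the ROR element of Nfil3 lay at -12. The windows of Dbp, Hlf, Rora and Noct held none of the 3 motifs in these exact letters, and no window held the D-box. A match of letters is a description and not a binding site, and sites outside these windows were not searched.

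When the 15 HFD-fed mice were compared with the 5 chow-fed mice, 4 of the 9 genes were called higher (Dbp, Tef, Hlf and Ciart) and 0 lower, by edgeR at an adjusted p under 0.05 over all genes tested. The background is 10.3% of 13702 protein coding genes called in either direction and 4.74% called higher. The median log2 fold change of the 9 genes was 0.67, against 0.01 for all protein coding genes tested. DESeq2 called 5 of the 9, adding Bhlhe41, where it called 13.6% of protein coding genes. The members were picked as outputs of 1 pathway, and 7 of them, all but Rora and Noct, varied together over the HFD-fed mice, so they do not count as separate pieces of evidence. They were also chosen with earlier results of these data known, so the shares above are a description.

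**Figure D1:**
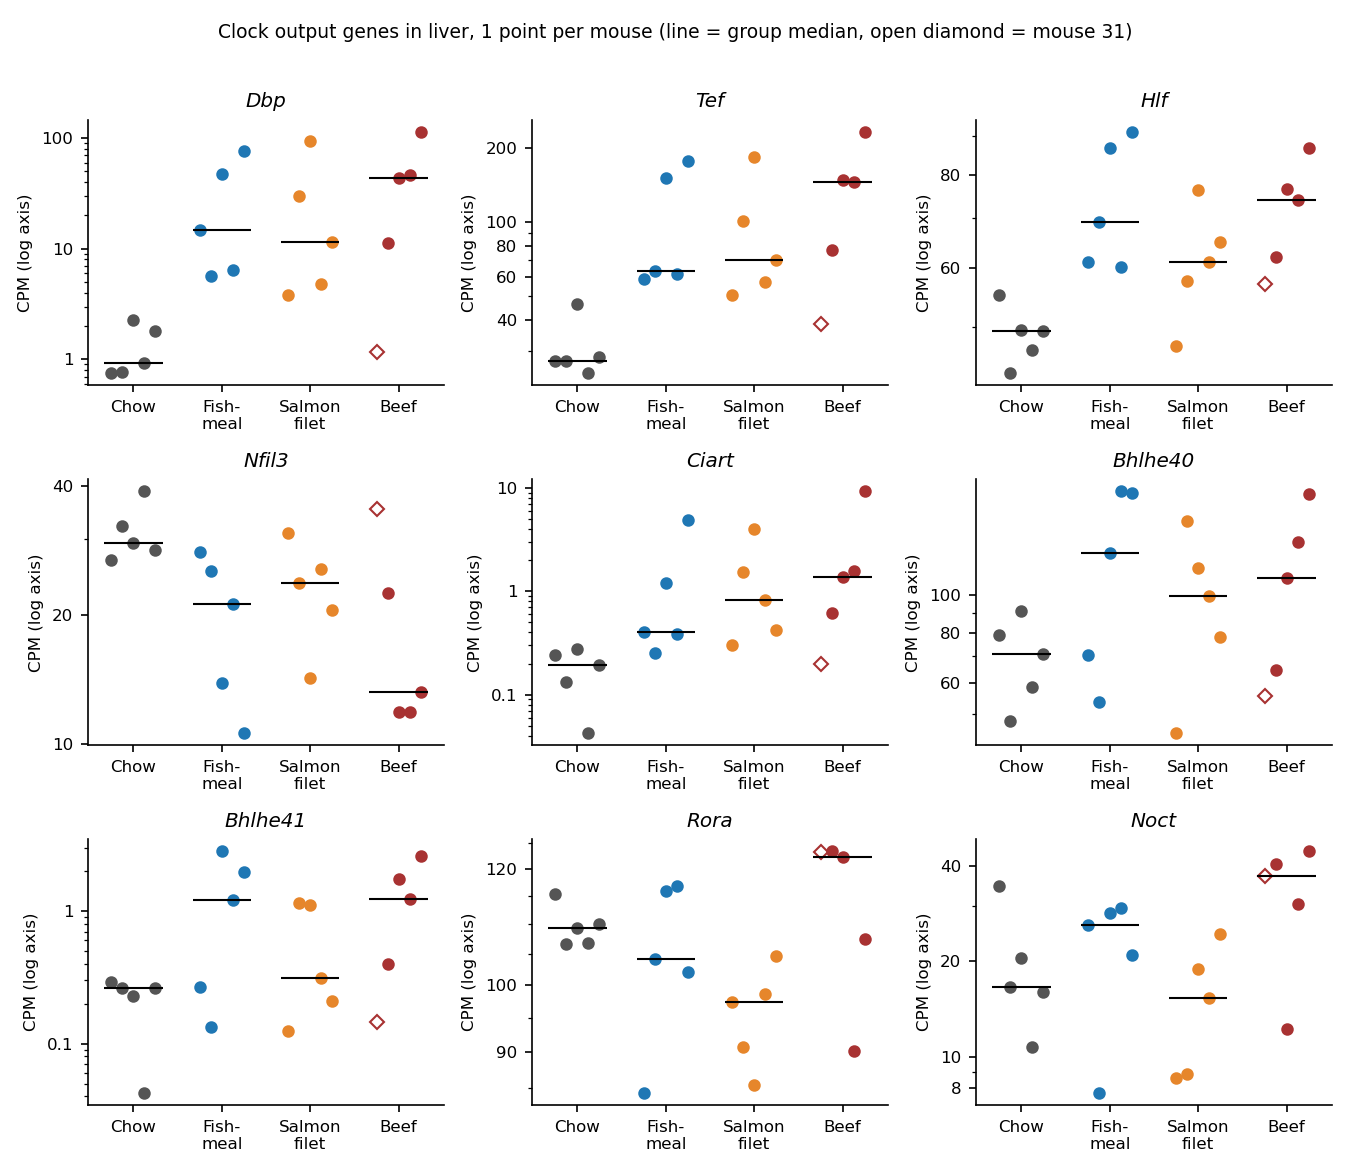
CPM (counts scaled to library size, log axis) of each gene in each of the 20 mice, by group as in the column names, with a line at the group median and mouse 31 as an open diamond. Dbp spanned 1.159 to 114 CPM over the HFD-fed mice and 0.748 to 2.27 CPM over the chow-fed mice, while Rora stayed between 84.4 and 123 CPM in all 20.

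Dbp, the activator named for its binding to the D-site of the albumin promoter, had the largest difference from chow of the 9 genes. In chow-fed mice its level was 0.748, 0.771, 2.27, 0.934 and 1.80 CPM (counts scaled to library size by TMM) in mice 1, 2, 5, 7 and 10. With fishmeal it was 14.8, 5.64, 47.3, 6.44 and 76.5 CPM in mice 12, 13, 14, 16 and 20. With salmon filet it was 3.82, 29.8, 93.2, 4.82 and 11.6 CPM in mice 22, 23, 25, 26 and 27. Every one of these 10 HFD-fed mice stood above the highest chow-fed mouse, with a wide spread inside both groups. With beef it was 11.2, 43.6, 45.9 and 114 CPM in mice 32, 35, 39 and 40, and 1.159 CPM in mouse 31. Mouse 31 alone of the 15 HFD-fed mice lay within the range of the chow-fed mice. The group means were 34.0 ± 35.8 CPM (SD, n = 15) on HFD and 1.30 ± 0.69 CPM (SD, n = 5) on chow, a ratio of 26.1, and the ratio of the medians was 15.8. Dbp rose by 4.67 ± 0.99 on the log2 scale (SE, adjusted p = 0.00423). Without mouse 31 the log2 fold change was 4.77 (adjusted p = 0.00184). On the scale of mean log2 CPM, as limma compares it, the difference was 3.84 (adjusted p = 0.00396), since a few mice with very high levels weigh less there.

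Dbp lies at chr7:45705088-45710203 on the + strand (GRCm38) and shares its 3′ end with Sphk2, a sphingosine kinase gene on the other strand. The 2 genes overlap at chr7:45709467-45710203, and the longest match between their transcripts is 541 bases. Sphk2 was also called higher, by 0.97 ± 0.24 on the log2 scale (SE, adjusted p = 0.0133). Sphk2 held 800 to 2339 counts in chow-fed mice and 1816 to 5589 on HFD, where Dbp held 44 to 130 and 64 to 5700. The libraries were strand-specific, but whether the counting used strand is not given in the sources used here, so in the shared stretch the reads of Dbp and Sphk2 may not be told apart.

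Tef (chr15:81802421-81826863, + strand), the second PAR bZIP activator, showed a similar order of mice at a higher level. Chow-fed mice had 27.5, 27.5, 46.8, 24.5 and 28.5 CPM in mice 1, 2, 5, 7 and 10. The fishmeal mice had 59.1, 63.3, 151, 61.9 and 177 CPM in mice 12, 13, 14, 16 and 20. The salmon filet mice had 50.8, 101.3, 184, 57.2 and 69.99 CPM in mice 22, 23, 25, 26 and 27. None of these 10 mice overlapped with chow. The beef mice 32, 35, 39 and 40 had 76.8, 148, 145 and 232 CPM, and mouse 31 had 38.6 CPM, within the chow range because of the high value of mouse 5. Means were 108 ± 60.0 CPM (SD, n = 15) on HFD and 31.0 ± 9.01 CPM (SD, n = 5) on chow, and Tef rose by 1.80 ± 0.38 on the log2 scale (SE, adjusted p = 0.00417). All 15 HFD-fed mice were above the chow mean.

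Hlf (chr11:90336536-90390895, - strand), the third PAR bZIP activator, was also called higher, by a smaller amount. It ranged from 43.4 to 55.3 CPM in chow-fed mice (median 49.5) and from 47.2 to 91.3 CPM on HFD (median 65.0). The one HFD-fed mouse within the chow range was mouse 22, fed salmon filet. The log2 fold change was 0.49 ± 0.12 (SE, adjusted p = 0.0128). The calls for Dbp, Tef and Hlf in HFD against chow held with each of the 20 mice left out in turn, with adjusted p up to 0.0179, 0.0184 and 0.0475.

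Nfil3 (chr13:52967209-52981073, - strand), the repressor at the D-box, had the opposite sign and did not pass the test. Chow-fed mice had 26.8, 32.2, 29.4, 38.8 and 28.4 CPM in mice 1, 2, 5, 7 and 10, and HFD-fed mice had from 10.6 to 35.4 CPM with a median of 21.2 CPM. In 12 of the 15 HFD-fed mice the level was below the lowest chow-fed mouse, and mice 12, 22 and 31 were within the chow range. The log2 fold change was -0.59 ± 0.22 (SE, adjusted p = 0.0998). Leaving out mouse 31 gave -0.67 with an adjusted p of 0.0468, the only 1 of 20 such fits that called Nfil3.

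Among the genes whose products repress at E-boxes, Ciart was called higher and Bhlhe40 and Bhlhe41 were not. Ciart (chr3:95878503-95882251, - strand), also known as Chrono, was low in every mouse, with 2 to 16 counts (0.0425 to 0.279 CPM) in chow-fed mice and 11 to 461 counts (0.199 to 9.23 CPM, median 0.821) on HFD. It was above the highest chow-fed mouse in 13 of 15 HFD-fed mice, and mice 13 and 31 were within the chow range. The log2 fold change was 3.08 ± 0.88 (SE, adjusted p = 0.0282). Leaving out chow-fed mouse 1, 2, 7 or 10 ended the call, with adjusted p from 0.0550 to 0.0800. In those fits 816, 916, 877 and 1294 protein coding genes were called, against 1415 with all mice. The transcript of Ciart is 96.7% identical over 1126 bases to that of Gm9176, a gene not analysed here, and the antisense gene C920021L13Rik, which covers the Ciart locus, was not called (log2 fold change 0.33, adjusted p = 0.302), so the split of reads between these genes is uncertain.

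Bhlhe41 (chr6:145858243-145865558, - strand) and Bhlhe40 (chr6:108660629-108666925, + strand) are paralogs that repress BMAL1 and CLOCK. Bhlhe41 had 2 to 19 counts in chow-fed mice (0.0425 to 0.290 CPM) and 7 to 170 on HFD (0.125 to 2.82 CPM, median 1.11). It was above every chow-fed mouse in 10 of 15 HFD-fed mice and within the chow range in the other 5, mice 12, 13, 22, 27 and 31. The log2 fold change was 2.04 ± 0.69 (SE, adjusted p = 0.0614), and leaving out mouse 12, 13, 22 or 31 brought the adjusted p to between 0.0438 and 0.0494. Bhlhe40 was an abundant transcript, with 48.0 to 91.5 CPM in chow-fed mice (median 70.7) and 44.6 to 184 CPM on HFD (median 111). In 9 of 15 HFD-fed mice Bhlhe40 exceeded the highest chow-fed mouse and in 1, mouse 22, it was below the lowest. Its log2 fold change was 0.67 ± 0.30 (SE, adjusted p = 0.168).

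Rora (chr9:68653786-69388246, + strand) and Noct (chr3:51224447-51251644, + strand) gave no call in HFD against chow. Rora was nearly even, with 107 to 115 CPM in chow-fed mice and 84.4 to 123 CPM on HFD, and a fold change on the log2 scale of -0.07 ± 0.09 (SE, adjusted p = 0.681). The narrow range of the chow-fed mice was left on both sides by the HFD-fed mice, with 5 above, 9 below and 1 within. Noct ranged from 10.8 to 34.7 CPM in chow-fed mice and from 7.70 to 44.5 CPM on HFD, and its log2 fold change was 0.25 ± 0.35 (SE, adjusted p = 0.715). Its longest annotated transcript shares stretches of at least 100 bases at 90% identity or more with 98 other genes, so the count of Noct is uncertain. It also overlaps Gm38357 on its own strand, while Tef, Bhlhe40, Bhlhe41 and Rora overlap Gm17597, 0610040F04Rik, Gm43909 and Gm15511 on the other strand, where the limit given for Dbp holds as well.

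Compared per length, as TPM, Bhlhe40 and Nfil3 were the most abundant of the 9 genes in chow-fed mice, with medians of 38.8 and 36.1 TPM and overlapping ranges. Rora (21.8 TPM) and Hlf (18.6 TPM) followed, then Tef (9.36 TPM) and Noct (4.30 TPM), and Dbp (0.834 TPM), Ciart (0.220 TPM) and Bhlhe41 (0.101 TPM) were at the low end. On HFD the medians of Nfil3 (26.9 TPM), Tef (24.8 TPM), Hlf (24.7 TPM) and Rora (20.5 TPM) lay close together with overlapping ranges, and Dbp (10.3 TPM) was above Noct (5.19 TPM). Dbp thus had a median 1 place lower in the order than Noct on chow and 1 place higher on HFD, while Ciart (0.958 TPM) and Bhlhe41 (0.410 TPM) were the lowest on both diets.

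**Figure D2:**
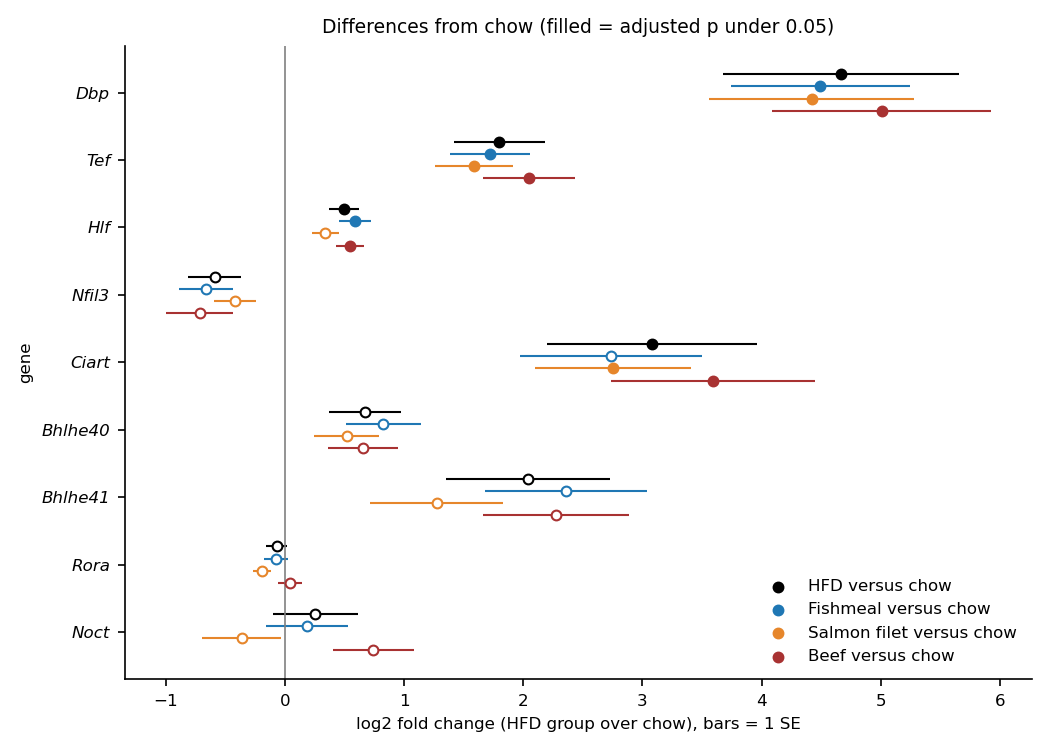
Log2 fold change from chow (x axis, bars 1 SE) of each gene in all HFD-fed mice and in each HFD group as in the column names, with filled points where the adjusted p is under 0.05. Dbp and Tef are filled in all 4 comparisons, with values from 4.42 to 5.01 for Dbp and from 1.58 to 2.04 for Tef.

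The HFD groups were then set against chow 1 at a time. These 3 comparisons share the same 5 chow-fed mice. With fishmeal, 3 of 9 genes were called (Dbp, Tef and Hlf, all higher), where 3.5% of protein coding genes were called, and 5 of 9 by DESeq2 (Ciart and Bhlhe41 in addition), where 7.46% were. With salmon filet, 3 of 9 were called (Dbp, Tef and Ciart, all higher) against a background of 4.57%, and DESeq2 also called 3 (Dbp, Tef and Ciart), against 11.3%. As labelled, salmon filet gave 2 calls (Dbp and Tef), where 4.36% of protein coding genes were called. With beef, 4 of 9 were called (Dbp, Tef, Hlf and Ciart, all higher) against 2.97%, and 5 by DESeq2 (Bhlhe41 in addition) against 7.24%. As labelled, which removes mouse 31 from beef, 6 of 9 were called against 2.53%, with Bhlhe41 higher and Nfil3 lower as the additional genes.

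With fishmeal, Dbp differed from chow by 4.49 ± 0.75 on the log2 scale (SE, adjusted p = 0.00634). It differed by 4.42 ± 0.86 (adjusted p = 0.0229) with salmon filet and by 5.01 ± 0.92 (adjusted p = 0.0152) with beef. With mouse 31 as labelled these became 4.17 (adjusted p = 0.0343) for salmon filet and 5.32 (adjusted p = 0.00204) for beef. Tef differed by 1.72 ± 0.33 with fishmeal (adjusted p = 0.0148), by 1.58 ± 0.32 with salmon filet (adjusted p = 0.0257) and by 2.04 ± 0.39 with beef (adjusted p = 0.0181). The labelled groups gave 1.44 (adjusted p = 0.0385) and 2.28 (adjusted p = 0.00338) for Tef. In salmon filet against chow, leaving out chow-fed mouse 2 or 7 ended the calls of both genes, with adjusted p from 0.0543 to 0.0632. In beef against chow the same mice ended that of Tef (0.0533 and 0.0548). Fewer genes were called in general there, 202 and 167 protein coding genes with salmon filet, against 615 with all mice. With beef they were 159 and 173, against 397. The log2 fold change of Dbp in these salmon filet fits was 4.28 and 4.335.

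Hlf was 0.59 ± 0.13 higher on the log2 scale with fishmeal (adjusted p = 0.0316) and 0.54 ± 0.12 higher with beef (adjusted p = 0.0316). With salmon filet the difference was 0.34 ± 0.11 and did not pass (adjusted p = 0.103). As labelled, it was 0.32 (adjusted p = 0.105) with salmon filet and 0.61 (adjusted p = 0.0189) with beef. With 1 mouse left out at a time, the Hlf call held only without mouse 1, 12 or 16 for fishmeal and only without mouse 1, 31 or 32 for beef. Elsewhere the adjusted p was 0.0538 to 0.0927. Over such fits 239 to 569 protein coding genes were called with fishmeal (471 with all mice). With salmon filet it was 167 to 533 (615 with all mice) and with beef 159 to 363 (397). Ciart differed by 2.74 ± 0.77 with fishmeal (adjusted p = 0.0742), by 2.75 ± 0.65 with salmon filet (adjusted p = 0.0378) and by 3.59 ± 0.86 with beef (adjusted p = 0.0431). Its call held only without mouse 22 or 27 for salmon filet and only without mouse 31 or 32 for beef, with adjusted p of 0.0519 to 0.113 in the other fits. The labelled groups gave 2.54 (adjusted p = 0.0581) and 3.89 (adjusted p = 0.0200). The difference of Ciart was smallest without the highest mouse of each group, at 1.47 without fishmeal mouse 20 (adjusted p = 0.167), 1.91 without salmon filet mouse 25 (0.0811) and 2.14 without beef mouse 40 (0.0738). The salmon filet call was also lost in the fit on all 4 groups (adjusted p = 0.119) and in limma (0.0534), and the beef call in limma (0.0868), while in fishmeal Ciart passed by DESeq2 (0.0137) and without a filter on low counts (0.0370).

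Nfil3 was below chow by 0.66, 0.42 and 0.72 on the log2 scale in the fishmeal, salmon filet and beef mice, with no call in any of the 3 (adjusted p from 0.146 to 0.197). In the 6 mice labelled salmon filet the Nfil3 difference was -0.30 (adjusted p = 0.374). In the 4 mice labelled beef, Nfil3 fell by 1.07 ± 0.20 (SE, adjusted p = 0.0194). There its level was 22.5, 11.9, 11.9 and 13.2 CPM in mice 32, 35, 39 and 40, all below the chow-fed mice, whereas mouse 31 had 35.4 CPM. Bhlhe41 was above chow by 2.36 ± 0.68 in the fishmeal mice, 1.272 ± 0.56 in the salmon filet mice and 2.27 ± 0.61 in the beef mice, and none passed (adjusted p from 0.0692 to 0.193), though leaving out fishmeal mouse 12 or 13 gave a call (adjusted p 0.0423 and 0.0304). Bhlhe41 also passed in fishmeal and in beef by DESeq2 (adjusted p = 0.0273 and 0.00192) and without a filter on low counts (0.0449 and 0.0422). As labelled, it was 1.09 (adjusted p = 0.287) with salmon filet. In the mice labelled beef Bhlhe41 was called, with 2.56 ± 0.49 (SE, adjusted p = 0.0213). Bhlhe40, Rora and Noct were not called in any group against chow under either grouping.

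Between the HFD groups none of the 9 genes was called by edgeR, DESeq2 or limma. In fishmeal against salmon filet 0 of 9 had an unadjusted p under 0.05, where 728 of 13456 protein coding genes did (570 of 13469 as labelled). After adjustment, 0.178% of these genes were called (0.163% as labelled). In fishmeal against beef 0 of 9 had such an unadjusted p, where 287 of 13354 genes did (257 of 13437 as labelled). After adjustment, 0.03% were called (0.00744% as labelled). In salmon filet against beef 2 of 9 had an unadjusted p under 0.05 (3 as labelled), where 660 of 13318 genes did (470 of 13439 as labelled). There 0.0% of genes were called by edgeR under either grouping, and 5 genes by DESeq2. The difference of Dbp was 0.07 ± 0.89 (SE) in fishmeal over salmon filet, -0.53 ± 0.92 in fishmeal over beef and -0.59 ± 0.99 in salmon filet over beef on the log2 scale. With mouse 31 as labelled these were 0.32 ± 0.94, -0.84 ± 0.77 and -1.16 ± 0.95. By column names each SE was larger than the difference of Dbp beside it. The smallest difference that these tests could detect was not computed, so the lack of a call does not show that the protein sources are alike. The 2 genes with an unadjusted p under 0.05 were Noct, with a log2 difference of -1.105 ± 0.35 in salmon filet over beef, and Rora, with -0.24 ± 0.10, both with an adjusted p of 0.922. As labelled, Noct (-0.75) and Rora (-0.14) did not have such a p. The 3 genes that then did were Nfil3, with a log2 difference of 0.77, Bhlhe41, with -1.48, and Hlf, with -0.29, each with an adjusted p of 0.9995 in edgeR. For Noct the levels were 8.60 to 24.4 CPM with salmon filet and 12.2 to 44.5 CPM with beef, which overlap.

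**Figure D3:**
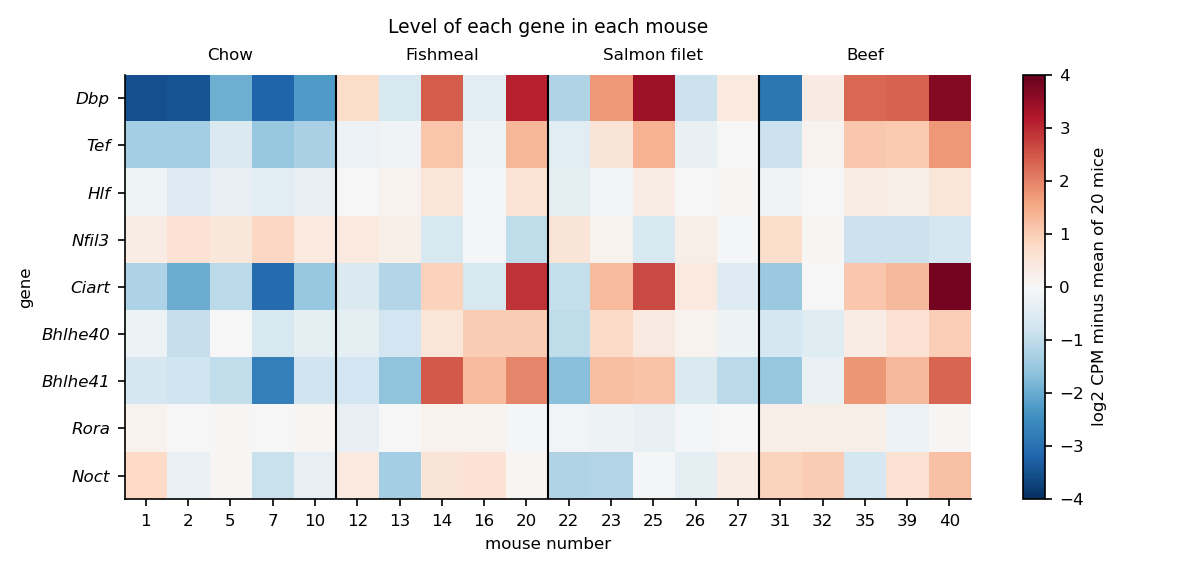
Log2 CPM of each gene in each mouse minus the gene's mean over the 20 mice (colour, red above and blue below the mean), with mice in order of their number and groups as in the column names. The columns of mice 14, 20, 25, 35, 39 and 40 are red for Dbp, Tef, Ciart and Bhlhe41 and blue for Nfil3, and the column of mouse 31 resembles the chow-fed mice for these 5 genes.

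Within groups, 7 of the 9 genes varied among mice by more than the median gene. After the group means were taken out, the SD of log2 CPM was 1.84 for Dbp, 1.52 for Ciart, 1.42 for Bhlhe41 and 0.76 for Tef, against a median of 0.24 over 13702 protein coding genes. By this measure Dbp ranked 11, Ciart 24, Bhlhe41 31 and Tef 378 among them, and Noct (0.71), Bhlhe40 (0.67) and Nfil3 (0.51) were also above the median. Hlf (0.23) and Rora (0.15) lay below it. The ranks were taken over genes of all levels. Ciart and Bhlhe41 had only 2 to 16 and 2 to 19 counts in chow-fed mice, where counting noise adds to the SD. The spread of Dbp on HFD was an SD of 1.94 on the log2 scale over 15 mice, against 0.72 over the 5 chow-fed mice. Each of the 3 HFD groups held mice with low and with high levels. The highest Dbp value was 13.6 times the lowest with fishmeal, 24.4 times with salmon filet and 98.4 times with beef (10.2 times in the 4 mice labelled beef). In mouse 35, with the low share of protein coding counts, Dbp (43.6 CPM) and Tef (148 CPM) were close to those of mouse 39 (45.9 and 145 CPM). Noct (12.2 against 30.3 CPM) and Rora (122 against 90.2 CPM) differed more between these mice. The part of the low share in these levels was not tested.

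The genes moved together over the 15 HFD-fed mice. Against Dbp, Pearson's r of log2 CPM was 0.968 for Tef (Spearman's rho 0.954), 0.900 for Ciart (0.896), 0.837 for Bhlhe41 (0.800), 0.793 for Hlf (0.832) and 0.707 for Bhlhe40 (0.668). For Nfil3 r was -0.882 (rho -0.821), so the mice with the highest Dbp had the lowest Nfil3. All 6 passed a two-sided permutation test with 100000 permutations, adjusted over the 8 relations computed, with an adjusted p of 8e-05 for Tef and Ciart, 0.00016 for Nfil3, 0.00044 for Bhlhe41, 0.000848 for Hlf and 0.00503 for Bhlhe40. For rho the adjusted permutation p was 8e-05 for Tef and Ciart, 0.00056 for Hlf and Nfil3, 0.000944 for Bhlhe41 and 0.0105 for Bhlhe40. The unadjusted permutation p for the r of Tef, 1e-05, is the smallest that the test can give. Without mice 31 and 40, the 2 farthest from the median of Dbp, r was 0.963 for Tef, 0.887 for Ciart, -0.851 for Nfil3, 0.795 for Bhlhe41, 0.776 for Hlf and 0.609 for Bhlhe40. The share of all genes that follow Dbp this closely was not computed, so 6 of 8 cannot be read as particular to these genes. Per3 and Mknk2, which are not members, had r of 0.954 and 0.913 with Dbp over all 20 mice, after the group means were taken out.

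Rora and Noct did not follow Dbp in these mice. The r was -0.282 for Rora (rho -0.232) and 0.142 for Noct (rho 0.221), with adjusted permutation p of 0.351 and 0.610 for r and 0.424 for both values of rho, and r without mice 31 and 40 was -0.168 and 0.244. Centring on the mean of each HFD group, which takes out any difference between the protein sources, left r of 0.975 for Tef, 0.912 for Ciart, -0.895 for Nfil3, 0.847 for Bhlhe41, 0.840 for Hlf and 0.709 for Bhlhe40. The time of collection was given for no mouse, and its part in these relations was not tested.

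**Figure D4:**
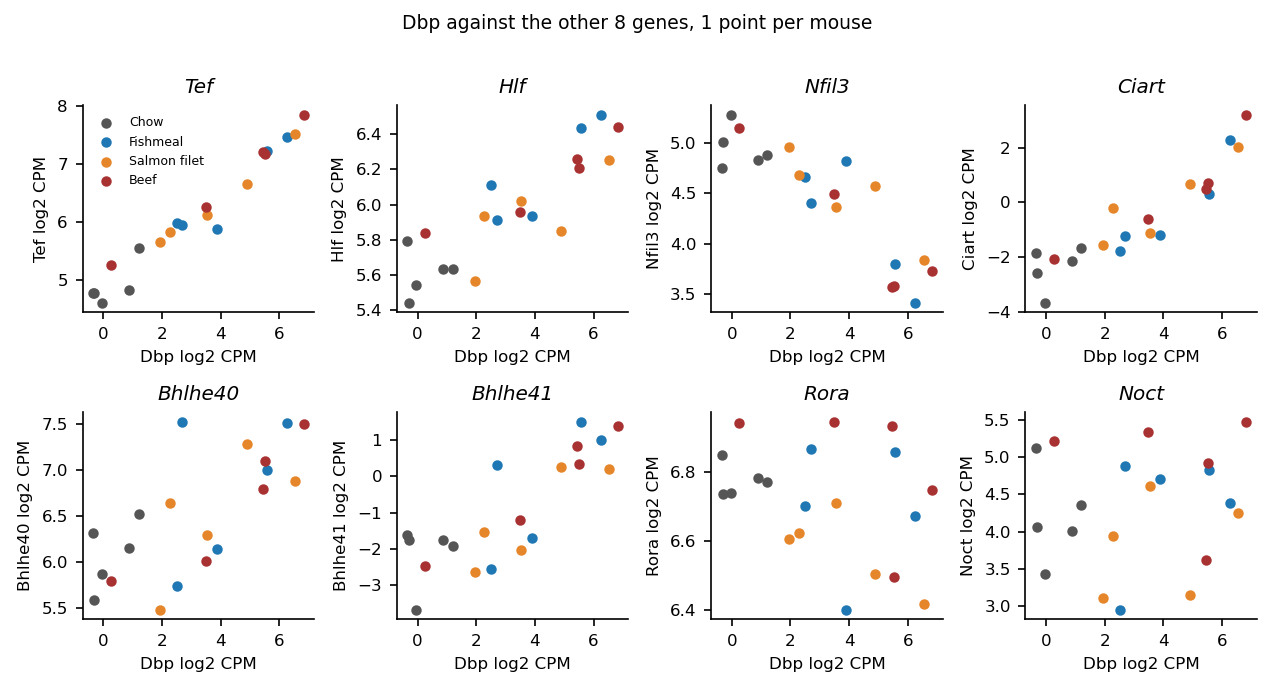
Log2 CPM of each of the other 8 genes (y axes) against log2 CPM of Dbp (x axes) in the 20 mice, coloured by group as in the column names. Tef follows Dbp most closely (r = 0.968 over the 15 HFD-fed mice), Nfil3 runs the other way (r = -0.882), and the points of Rora and Noct are scattered.

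The genes most like each member over all 20 mice were sought as the highest Pearson r of log2 CPM after the group means were taken out, among about 11564 protein coding genes with a mean of at least 1 CPM, as a description. For Dbp these were Tef (r = 0.964), the period gene Per3 (0.954) and the kinase gene Mknk2 (0.913). For Tef they were Per3 (0.977), Dbp (0.964) and Ciart (0.920), and for Ciart they were Per3 (0.927), Tef (0.920) and Per2 (0.917). The genes nearest to these 3, apart from Mknk2, were members or period genes. For Hlf they were A930033H14Rik (0.896), Xylb (0.891) and Per2 (0.880). For Nfil3 they were Pnrc1 (0.929), Leo1 (0.899) and Arntl (0.898), the last of which encodes BMAL1. For Bhlhe41 they were P2ry1 (0.882), its paralog Bhlhe40 (0.857) and Per3 (0.852). For Bhlhe40 they were Tedc2 (0.922), Mbd1 (0.848) and Klf10 (0.821). For Rora they were Helz (0.834), Zfp709 (0.831) and Lnpep (0.825), and for Noct Vkorc1l1 (0.908), Adh7 (0.865) and Copg2 (0.862), none of them a member.

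Among the core clock genes themselves, 7 of 11 were called in HFD against chow, 5 higher and 2 lower, with a median log2 fold change of 0.87 over the 11. Of all protein coding genes tested, 10.3% were called in this comparison and 4.74% were called higher. These shares are the background for the lists below as well, and the lists were chosen with earlier results of these data known. Cry2, a repressor of BMAL1 and CLOCK, rose by 0.87 ± 0.15 (SE, adjusted p = 0.000791), from 21.2 ± 3.82 to 38.8 ± 8.67 CPM (SD, n = 5 and 15). Nr1d2 and Nr1d1, which encode the repressors at ROR elements, rose by 1.58 ± 0.29 (adjusted p = 0.00112) and 1.71 ± 0.54 (adjusted p = 0.0476). Nr1d1 was uneven on chow, with an SD above the mean (39.0 ± 50.5 CPM, against 127 ± 51.6 CPM on HFD). The period genes Per2 and Per3 rose by 1.204 ± 0.31 (adjusted p = 0.0150) and 2.61 ± 0.68 (adjusted p = 0.0169). The 2 genes called lower were Clock, at -0.45 on the log2 scale (adjusted p = 0.0374), and Cry1, at -0.91 (adjusted p = 0.0424). Clock and Cry1 lie outside the rule for naming genes and are named because they are the only core clock genes called lower. Arntl had 37.1 ± 5.15 CPM on chow and 17.8 ± 10.4 CPM on HFD and did not pass the test (log2 fold change -1.05 ± 0.36, adjusted p = 0.0654).

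Of 10 genes known to depend on PAR bZIP factors in liver, 2 were called higher and 2 lower, with a median log2 fold change of -0.18. Cyp2a5, a cytochrome P450 that oxidises coumarin, rose from 214 ± 45.4 to 443 ± 162 CPM (log2 fold change 1.05 ± 0.24, adjusted p = 0.00746). Ppara, a nuclear receptor for fatty acids, rose by 0.85 ± 0.24 (adjusted p = 0.0288). Cyp7a1, the rate-limiting enzyme of bile acid synthesis, fell from 375 ± 161 to 95.1 ± 41.4 CPM (-1.98 ± 0.28, adjusted p = 8.11e-05), and Cyp2b10, a drug-metabolising cytochrome P450, fell from 35.3 ± 20.1 to 1.99 ± 1.37 CPM (-4.12 ± 0.36, adjusted p = 2.57e-07). The calls in this list thus went both ways. The reads of Cyp2a5 may be shared with its close paralog Cyp2a4, which was not called (-0.36, adjusted p = 0.402). Of 5 other rhythmic liver genes, 1 was called higher, the glycogen synthase gene Gys2 (0.49 ± 0.16, adjusted p = 0.0485), and 0 lower, with a median of 0.49 over the 5.

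Of 12 genes that respond to glucocorticoids or fasting, which can also act on the clock of the liver, 0 were called higher and 1 lower, with a median log2 fold change of 0.12. The gene called was Pdk4, a kinase that restrains glucose oxidation, with -1.29 ± 0.32 (SE, adjusted p = 0.0119), from 46.1 ± 3.43 to 18.8 ± 11.0 CPM. Markers of other liver cells were also counted. Of 9 lymphocyte markers 6 were called lower on HFD, where 766 of 13702 protein coding genes tested were. The summed levels of the 9 markers were 7.51 to 17.0 TPM in chow-fed mice and 2.96 to 8.32 TPM on HFD. Of 5 sinusoidal endothelial markers and of 4 cholangiocyte markers 1 each was called lower, with sums of 91.9 to 113 against 60.5 to 100 TPM and of 6.79 to 13.2 against 3.32 to 11.6 TPM. None of 5 Kupffer cell (163 to 372 against 145 to 356 TPM) or 4 stellate cell markers (22.1 to 32.0 against 20.7 to 38.8 TPM) was called by edgeR. No marker was without counts in all mice. The part of these shifts in the members' levels was not tested.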

How the data were processed

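Before deposit, reads were cleaned by the authors with BBDuk, aligned with HISAT2 1.2.1 and summed over Ensembl genes by featureCounts 1.4.6-p1, 1 library per mouse. The deposited values are raw counts and, in a further table, TPM, which the authors scaled for gene length and depth. The settings for strand and for reads that fit several genes are not given in the sources used here, and the genome is printed as a human build. Positions are from GENCODE M21 on GRCm38.

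The counts were tested with edgeR 4.0.16 in R 4.3 (TMM, filterByExpr at a minimum count of 10, two-sided quasi-likelihood F-test, Benjamini-Hochberg over all genes tested, call at an adjusted p under 0.05). SE is the log2 fold change divided by the root of F. Log2 CPM used a prior count of 2. Each pairwise fit held only the groups compared. Similar transcripts were sought with blastn 2.17. The depth was 42526234 to 70266136 counts per library. Each library is a separate mouse.

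Alternatives were DESeq2 1.42.0, DESeq2 size factors, no filter (at least 1 count), a fit on all 4 groups, the groups as labelled, each mouse left out and, chosen after seeing the data, limma 3.58.1 on log2 CPM. The tools were tested on simulated data. All 9 members are named. Of each list at most 4 called genes are named, by lowest adjusted p, and of the core clock also Arntl, Nr1d1 and Per2. The members and lists were chosen with earlier results of these data known. Genes overlapping the members were chosen after seeing the data. Protein sequences were not used here.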

Additional observations from a re-analysis of the deposited data

Results flagged for a closer look

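Within groups of 4 to 6 mice, single mice were checked for a gap to the nearest other mouse that takes up most of the group's range (Dixon's ratio on log2 CPM). Of 54 checks over the 9 genes and the groups under both ways of assigning mouse 31, 3 passed the 95% limit, and chance passes about 1 in 20. Tef in chow-fed mouse 5 was 46.8 CPM, against 24.5 to 28.5 CPM in the other 4 (ratio 0.763). Bhlhe41 in chow-fed mouse 7 was 0.0425 CPM, which is 2 counts, against 0.227 to 0.290 CPM in the others (ratio 0.848). Noct in fishmeal mouse 13 was 7.70 CPM, against 20.9 to 29.5 CPM in the others (ratio 0.742).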

How the results depend on the processing

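The number of the 9 genes called in HFD against chow was 4 under DESeq2 size factors, no filter, a fit on all 4 groups and limma, and 5 under DESeq2. In these settings 1427, 1111, 1400, 1422 and 1858 protein coding genes were called. In fishmeal against chow the number of the 9 was 3, and 5 under DESeq2 and without a filter. There 1003 and 498 protein coding genes were called. With single mice left out, the number of the 9 genes called ranged from 3 to 6 in HFD against chow and from 2 to 4 in fishmeal. It ranged from 0 to 3 in salmon filet and from 1 to 6 in beef, the lowest in both without chow-fed mouse 2 or 7. In the same fits the protein coding genes called ranged from 816 to 1619, 239 to 569, 167 to 533 and 159 to 363. With all mice they numbered 1415, 471, 615 and 397. Without chow-fed mouse 2 or 7 they were 202 and 167 in salmon filet and 159 and 173 in beef. Against chow, the sign turned for 1 of 36 differences, Rora with fishmeal, at 0.0080 without fishmeal mouse 12 (from -0.12 to 0.0080 with single mice left out). Between HFD groups, where none was called, the sign turned for 12 of 27. With single mice left out, fishmeal over salmon filet ranged from -0.63 to 1.266 for Dbp, -0.15 to 0.55 for Tef and -1.30 to 0.82 for Ciart (0.18 as labelled). Fishmeal over beef ranged from -1.23 to 0.24 for Dbp, -0.046 to 0.12 for Hlf (-0.027 as labelled), -0.091 to 0.41 for Nfil3, -2.15 to 0.57 for Ciart, -0.018 to 0.42 for Bhlhe40 (-0.0013 as labelled) and -0.45 to 0.53 for Bhlhe41 (-0.22 as labelled, -0.065 by limma). Salmon filet over beef ranged from -1.79 to 0.17 for Dbp, -1.70 to 0.60 for Ciart and -0.36 to 0.11 for Bhlhe40. Only fits without beef mouse 40 turned Dbp and Ciart in the comparisons with beef. Median log2 fold changes of all genes lay near 0 under each scaling tried. For the correlations with Dbp, log2(TPM + 1) and centring on the HFD groups kept the 6 calls. No paired analysis was possible because each mouse has its own number and none is shared between groups. Low counts limit Ciart and Bhlhe41, with 2 counts in chow-fed mouse 7.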
